A study of Mus musculus with 4 samples.

Results

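The comparison was between macrophages that lack Stat6 and wild-type macrophages that had both been kept in medium without IL-4. It rests on 2 arrays, 1 per genotype, of the 4 arrays of the series, and covers all 19938 genes that had a probeset with 1 gene symbol. The wild-type cells were from the BALB/c strain. The other cells came from mice given as 4get/Stat6-/-, which carry no working Stat6 and also the 4get allele, a fluorescent reporter inserted at the Il4 gene. The wild-type label names no reporter, so the loss of Stat6, the reporter allele and any other difference between the mouse lines cannot be told apart. Both genotypes were treated alike: bone marrow cells were grown for 7 days with 10% supernatant of L929 fibroblasts as the source of M-CSF, replated, cultured for 24 h in medium, and purified by sorting on the macrophage surface antigen F4/80. The age and number of mice behind each array, and any pooling of marrow, are not stated.

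STAT6 is the transcription factor that the IL-4 and IL-13 receptors activate. The IL-4 receptor alpha chain pairs with the common gamma chain or with the IL-13 receptor, JAK kinases bound to these chains phosphorylate STAT6, and STAT6 dimers then enter the nucleus and bind paired TTC and GAA elements. In macrophages this pathway is known for alternative activation, in which arginase, resistin-like and chitinase-like proteins, lectins and fusion proteins are made. The cells compared here received no IL-4, so the comparison asks how the genotypes differed before the cytokine was given.

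Every value is a log2 RMA signal, and a difference is the signal in Stat6-/- minus the signal in wild type on that scale. With 1 array per group there was no replicate error, no test and no p-value, and it is this number of arrays that limits precision. A gene is said to have been higher or lower, or to have changed, where its log2 difference reached 1 (2-fold) and its higher array reached a floor of 2.52, the median signal of all probesets with 1 symbol. Where the lower array lay under the floor, the fold is a lower bound against the floor. In bulk RNA of this kind, fewer cells of a type and less RNA per cell cannot be told apart.

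The 4 arrays had similar medians over all probesets, from 2.23 to 2.29, and the signals of the 2 arrays in medium had a Pearson correlation of 0.978 across the 10299 genes above the floor in medium, which are not independent replicates. Macrophage markers were high in both: Adgre1, which encodes F4/80, read 10.75 in wild type and 10.29 in Stat6-/-, Csf1r read 10.87 in both, and Lyz2 read 11.82 and 11.74. Of 18 macrophage markers 16 lay above the floor, and 1 of them, Marco, changed. The summed linear signal of the list was 13628 in wild type and 12052 in Stat6-/-. The defining markers of NK cells (8 genes), basophils and mast cells (10 genes) and erythroid cells (3 genes) were under the floor on both arrays. Above the floor lay 5 of 10 T cell, 3 of 9 B cell, 5 of 14 neutrophil and 4 of 8 fibroblast markers. None of these changed, which is near the share of 1.45% among all genes above the floor. Of 9 markers of monocytes and immature cells 2 lay above the floor, Ccr2 at 5.92 and 6.70 and Hp at 3.57 and 3.94, and neither changed. Their list had a summed linear signal of 97.7 in wild type and 149 in Stat6-/-, of which Ccr2 made up most on both arrays. The part of this list in the results was not tested. Xist read 7.89 and 7.71, and the Y-linked genes Eif2s3y, Kdm5d and Uty were under the floor on both.

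Stat6 itself read 7.34 in wild type and 4.54 in Stat6-/-, a difference of -2.80 or 6.98-fold. In the pair of arrays cultured with IL-4 it read 6.68 and 4.25. The genotypes were thus apart in both cultures, and the signal in Stat6-/- stayed above the floor. Stat6 has 1 probeset on this array, and which part of the gene it covers relative to the targeted part of the allele is not stated.

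In medium, 149 of the 10299 genes above the floor passed the 2-fold rule, which is 1.45%. The signal was lower in Stat6-/- for 118 of them (1.15% of the genes) and higher for 31 (0.301%), so that 79.2% of the changed genes were lower. The differences ran from -3.96 to 1.92. The arrays were not centred on each other: the median difference of all genes above the floor was -0.11, with 5th and 95th percentiles of -0.69 and 0.48, and 63.3% of these genes had a lower signal in Stat6-/-. Relative to that median, 70 genes were lower and 54 higher, and 56.5% of the changed genes were lower. Below, the median of all genes means this median of the genes above the floor. With no floor, the median over all 19938 genes was 0.02, on the other side of 0. With quantile normalization applied again the split was 71 lower and 42 higher, or 62.8% lower. With the arrays shifted to one median over all probesets it was 158 lower and 25 higher, or 86.3% lower. The excess of lower genes was thus smaller in 2 of these rescalings and larger in the third. No called gene changed its direction under any of the 9 alternative settings. Settings of the floor or threshold cannot reverse a difference, and the rescalings moved the median by far less than the 2-fold threshold.

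Most of the largest differences were stable to the processing. The 2-fold rule was met under all of the 8 settings that keep a 2-fold threshold by 38 of the 118 lower and 13 of the 31 higher genes, and these included 17 of the 20 largest decreases and 12 of the 20 largest increases. Other differences, some of them among the largest, lost the rule in places. Among the genes named in what follows, Acp5, Gclc, Slc2a1, Mir15a and Pdpn lost it with quantile normalization applied again and with the intensity trend removed by lowess, and Txnrd1, Tfrc and Il7r with lowess alone. Those given below as short of 2-fold relative to the median of all genes lost it in both of these settings too, except Pcna, which lost it with lowess only. Ctsk, Phgdh, Zfp658, Ccl12 and Tmem210 lost it when values under the floor were raised to the floor. With the floor at the 75th percentile, the lower genes Marco, Vcam1, Mefv, Slc7a2, Tmem26, Lmnb1, Spic and Mir342 lost it. So did Mir15a, Ccr3, Tirap, Gpr31b, Ctsk and Phgdh, and the higher genes Mgl2, Usp17ld, Gm10602, Treml2, Ak1, Zfp658, Ccl12, Tmem210 and Tmem154. Of the lower genes, 45 lay within 0.1 of the threshold. Just inside it was H2-Aa at -1.002, and just outside was the protease gene Adam8 at -0.997, chosen after its values were seen. A further 64 genes lay within 0.1 below the threshold on the lower side and 18 on the higher side.

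**Figure D1:**
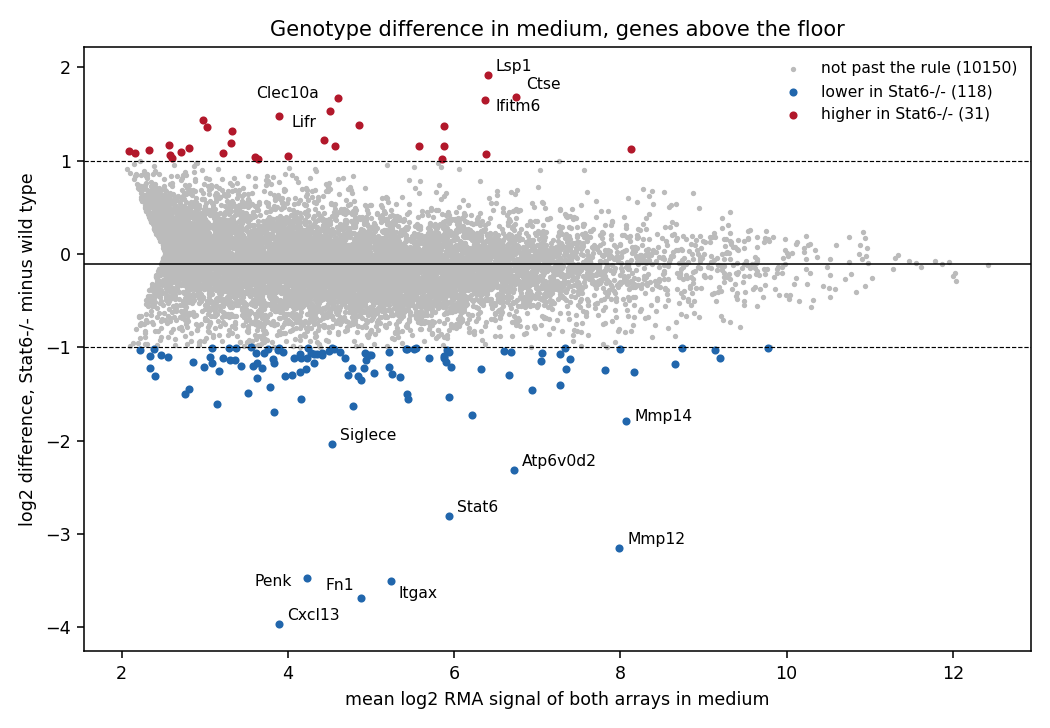
Each point is 1 of the 10299 genes above the floor in medium, with the mean log2 RMA signal of both arrays on the x axis and the log2 difference, Stat6-/- minus wild type, on the y axis. Dashed lines mark the 2-fold rule and the solid line the median difference of -0.11; 118 genes lie below the lower dashed line and reach -3.96, while the 31 above the upper one reach 1.92.

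The changed genes were spread over the whole range of signals. When the genes above the floor were divided into 4 equal classes by mean signal, 19, 34, 31 and 34 genes were lower from the weakest class to the strongest, and 13, 8, 4 and 6 were higher. The median differences of these classes were 0.06, -0.12, -0.18 and -0.16. Higher calls were thus most frequent among weak signals, and 10 of the 31 higher genes, against 16 of the 118 lower ones, had their lower array under the floor. Olfactory receptor genes, which macrophages are assumed not to express, gave 1 gene past the rule (Olfr767, 5.85 and 6.92) of 17 above the floor and 1027 on the array.

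Among the 5 genes lower by 3 or more on the log2 scale, 3 belong to the extracellular matrix, to adhesion and to matrix breakdown. Fn1, which encodes fibronectin, read 6.72 in wild type and 3.03 in Stat6-/-, a difference of -3.68 or 12.8-fold. Itgax, which encodes the integrin CD11c, read 6.99 and 3.49, a difference of -3.50 or 11.3-fold. Mmp12, the macrophage elastase, read 9.56 and 6.41, a difference of -3.15 or 8.89-fold. These 3 genes were well above the floor in wild-type cells without IL-4, and they stayed above it in Stat6-/-.

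Further genes of matrix breakdown moved the same way by less. Mmp14, a membrane-bound metalloproteinase that activates other proteases, read 8.97 and 7.18, a difference of -1.79. Mmp9, a gelatinase, read 6.01 and 4.70, a difference of -1.31. Plau, the urokinase that converts plasminogen, read 7.66 and 6.20, a difference of -1.46. Of 11 metalloproteinases and inhibitors above the floor, 3 were lower and 0 higher, beside 1.15% and 0.301% of all genes. Their median difference was -0.63 beside -0.11 for all genes. The list was not uniform: Mmp2 (2.86 and 2.95) and the inhibitor Timp2 (7.88 and 7.98), both chosen after their values were seen, did not pass the rule.

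Adhesion genes outside the proteases followed. Vcam1, a ligand of alpha 4 integrins, read 4.26 and 2.77, a difference of -1.49. Among 13 integrin genes above the floor, Itgax and Itga5 were lower and 0 were higher, beside 1.15% and 0.301% of all genes. Their median was -0.41. Itga5, a subunit of the fibronectin receptor, read 5.03 and 4.02, a difference of -1.01 that was short of 2-fold relative to the median of all genes. Rhoc, a small GTPase of cell shape and migration, read 6.71 and 5.17, a difference of -1.53. Myo1e and Myo10, unconventional myosins of the cell edge chosen after their values were seen, differed by -1.41 and -1.21.

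Itgax is also a marker of dendritic cells. Of 11 dendritic markers 3 lay above the floor in medium, and Itgax was the only 1 of them that changed. Flt3, Xcr1, Clec9a and Ccr7 were under the floor on both arrays, and Zbtb46 read 2.42 in wild type and 2.68 in Stat6-/-. The summed linear signal of the 11 markers was 165 in wild type and 51.6 in Stat6-/-, of which Itgax made up most in wild type.

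The promoter of Itgax carried a spaced pair of TTC and GAA elements, and promoters of changed genes with such a pair are shown because this is the arrangement that STAT6 dimers are known to bind. The search covered 3 motifs on both strands in the 250 bases before and 50 bases after each gene's start, in sequences from RefSeq on GRCm38.p6. The STAT6-type site was TTC, any 4 bases and GAA. The general STAT site was TTC, any 3 bases and GAA, and the interferon element was GAAA, any 2 bases and GAAA, which can overlap either. Promoters were held for 91 of the 118 lower and 22 of the 31 higher genes. Capitals in the stretches below mark the match to the STAT6-type site, and each stretch is written 5′ to 3′ on the strand of its gene. They belong to Itgax (chr7:128129378-128129477, plus strand, match starting 127 bases before the start), Clec5a (chr6:40585849-40585948, minus strand, 98 bases before), Acp5 (chr9:22130654-22130753, minus strand, 110 bases before), Tmem26 (chr10:68723646-68723745, plus strand, 41 bases before) and Il1rn (chr2:24345125-24345224, plus strand, 121 bases before one of its starts).
Itgax: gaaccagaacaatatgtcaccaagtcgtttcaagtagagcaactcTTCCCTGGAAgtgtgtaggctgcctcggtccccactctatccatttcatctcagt
Clec5a: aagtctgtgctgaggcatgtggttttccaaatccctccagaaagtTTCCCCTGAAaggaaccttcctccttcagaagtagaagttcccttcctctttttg
Acp5: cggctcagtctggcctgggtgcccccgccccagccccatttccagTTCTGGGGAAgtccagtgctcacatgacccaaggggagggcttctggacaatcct
Tmem26: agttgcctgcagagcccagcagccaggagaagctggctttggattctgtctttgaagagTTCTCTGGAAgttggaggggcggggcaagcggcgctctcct
Il1rn: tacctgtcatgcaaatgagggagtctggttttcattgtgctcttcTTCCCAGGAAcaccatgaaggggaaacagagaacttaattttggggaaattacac

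A match to the STAT6-type site was present in 8 of the 91 promoters of lower genes (8.79%) and in 1 of the 22 of higher genes (4.55%). The shares were 6.32% of 8326 promoters of genes above the floor and 8.01% of all 27025 promoters of the table, so the share among lower genes was near both. Among genes that were lower in both cultures it was 6 of 40 promoters, or 15%. The genes with a match were Itgax, Clec5a, Acp5, Tmem26 (with a further match 227 bases before its start), Zranb3, Cd36 (with its match after the start), Il1rn and the small RNA gene Gm24463. The general STAT site was found in 8.79% of the lower and 13.6% of the higher genes' promoters, beside 8.02% of those above the floor. The interferon element was found in 1 lower gene (1.1%) and 2 higher genes (9.09%), beside 3.77%. The promoters of Mmp12, Egr2, Cxcl13 and Rnf128 held no STAT6-type site within this window. A match is a description of the letters and was not tested as a binding site.

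The genes behind these stretches had the following signals. Clec5a, an activating lectin receptor of myeloid cells, read 5.55 in wild type and 4.21 in Stat6-/-, a difference of -1.35. Tmem26, a membrane protein chosen here for its promoter match, read 4.04 and 2.84, a difference of -1.20. Zranb3, a DNA repair helicase chosen in the same way, read 5.52 and 4.30, a difference of -1.23. All 3 were lower in Stat6-/- with IL-4 as well.

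Genes of osteoclasts and of macrophage fusion formed the list with the most lower members relative to its size among the adhesion and matrix lists. Of 16 such genes above the floor 5 were lower and 0 higher, beside 1.15% of all genes, and the median was -0.59. Atp6v0d2, a subunit of the proton pump that is needed for fusion of osteoclasts, read 7.87 and 5.56, a difference of -2.31 or 4.96-fold. Ctsk, the bone protease cathepsin K, read 3.52 and 2.01, at least 1.99-fold lower. Acp5, the tartrate-resistant acid phosphatase, read 5.51 and 4.38, a difference of -1.13 that became -0.95 with quantile normalization applied again. Cd9, a tetraspanin of cell fusion, read 8.43 and 7.19, a difference of -1.25.

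Not every gene of this kind moved. Nfatc1, the master regulator of osteoclasts, read 4.78 on both arrays. Dcstamp, the fusion receptor, read 3.10 and 2.19, short of 2-fold, and Calcr and Oscar, which mark mature osteoclasts, were under the floor on both arrays. The summed linear signal of the 9 osteoclast markers was 173 in wild type and 101 in Stat6-/-. Nfatc1, Dcstamp, Calcr and Oscar were chosen after their values were seen.

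Among secreted signals, Cxcl13, a chemokine that attracts B cells, had the largest difference of all genes. It read 5.87 in wild type and 1.91 in Stat6-/-, under the floor, which made it at least 10.2-fold lower. Penk, the precursor of enkephalin peptides, read 5.96 and 2.49, at least 10.9-fold lower. Both genes went from a moderate signal in wild type to background in Stat6-/-.

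Other chemokines were lower from a higher level. Ccl5, which attracts T cells and monocytes, read 8.80 and 7.53, a difference of -1.26. Cxcl14 read 7.31 and 6.02, a difference of -1.30, and Pf4, platelet factor 4, read 9.24 and 8.06, a difference of -1.18. Ccl12, a ligand of Ccr2, went the other way, from 2.24 under the floor to 3.38, at least 1.81-fold higher. Of 19 chemokines above the floor, 4 were lower and 1 higher, beside 1.15% and 0.301% of all genes. Their median of -0.03 lay above that of all genes. Among the chemokine receptors, where 1.45% of all genes changed, Ccr3, the eotaxin receptor, was the only 1 of 11 that changed. It read 4.27 and 3.26, a difference of -1.02 that was short of 2-fold relative to the median of all genes. Eosinophils also carry Ccr3, and their granule genes Prg2 and Epx were under the floor on both arrays.

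**Figure D2:**
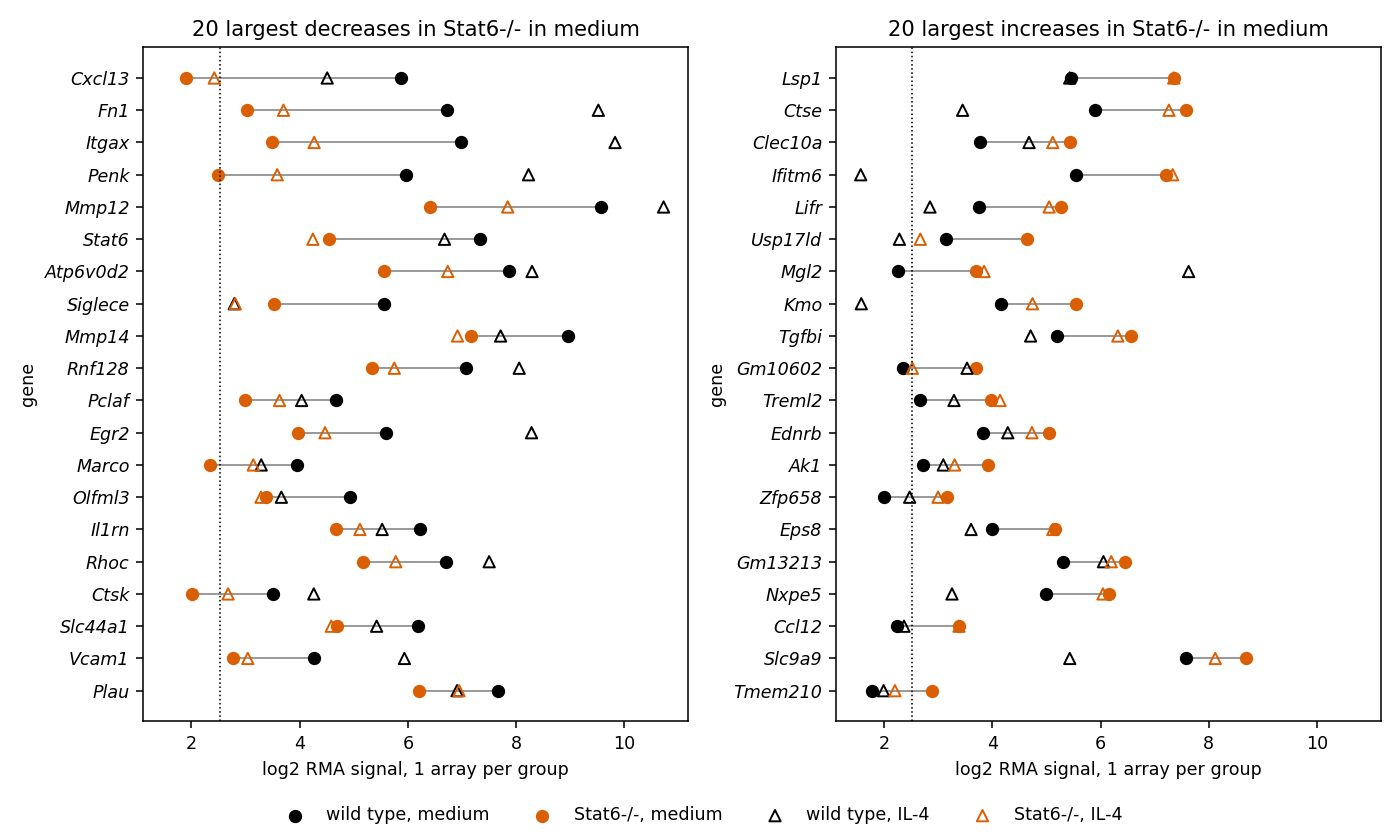
Log2 RMA signals, 1 array per group, of the 20 genes with the largest decrease (left) and the 20 with the largest increase (right) in Stat6-/- in medium. Filled circles joined by a line are the cultures in medium, open triangles those with IL-4, black is wild type and orange Stat6-/-, and the dotted line is the floor; Cxcl13 goes from 5.87 to 1.91 and Lsp1 from 5.45 to 7.37.

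Of 22 inflammatory cytokines and mediators above the floor, 4 were lower and 0 higher in Stat6-/- in medium, where 1.15% of all genes were lower. The median of the list was -0.65, and 18 of these 22 genes had a negative difference, beside 63.3% of all genes. Il1rn, the natural antagonist of the IL-1 receptor, read 6.22 and 4.67, a difference of -1.55. Marco, a scavenger receptor for bacteria, read 3.95 and 2.34, at least 2.69-fold lower. Sod2, the mitochondrial superoxide dismutase induced by NF-kappaB, read 7.96 and 6.73, a difference of -1.23, and Acod1, which makes itaconate, read 5.94 and 4.92, a difference of -1.02 that was short of 2-fold relative to the median of all genes. The cytokine Il1b itself read 8.27 and 7.31 and fell short of the rule, as did the acute phase gene Saa3 at 8.83 and 7.94, both chosen after their values were seen. With the floor lifted so that all genes counted, the median of this list was -0.17.

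Receptors of innate recognition gave single changed genes. Mefv, which encodes the inflammasome protein pyrin, read 4.49 and 3.07, a difference of -1.43, and was the only 1 of 17 inflammasome genes that changed. Tirap, an adaptor of Toll-like receptors, read 3.80 and 2.79, a difference of -1.01, and was the only 1 of 22 in its list, short of 2-fold relative to the median of all genes. Siglece, an inhibitory receptor for sialic acids, had the largest difference of these receptors, with 5.55 in wild type and 3.52 in Stat6-/- (-2.04). Treml2, of the TREM family, was higher, with 2.66 and 3.98 (1.32). No gene of the 14 receptors for dying cells, the 5 Fc receptors or the 14 MHC class I genes above the floor changed. Among all genes above the floor 1.45% changed.

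Among MHC class II genes a single member passed the rule. H2-Aa, an alpha chain of the class II molecule, read 7.83 and 6.83, at the threshold, and was that 1 of 8 genes, short of 2-fold relative to the median of all genes. The list had a median of -0.52 and 6 of its 8 genes had a negative difference, beside 63.3% of all genes. A share of 1.15% of all genes above the floor was lower by the rule. H2-Eb1 read 7.06 and 6.33, and Cd74, the invariant chain, read 8.38 and 7.58, both chosen after their values were seen.

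Genes of redox defence, iron, glucose and lipid uptake contributed further small decreases. Txnrd1, thioredoxin reductase, read 6.48 and 5.32, a difference of -1.16. Gclc, the catalytic subunit of the first enzyme of glutathione synthesis, read 5.24 and 4.13, a difference of -1.11. Prdx1, a peroxiredoxin, read 9.24 and 8.23, a 2.01-fold difference that was short of 2-fold relative to the median of all genes. These were 3 lower and 0 higher of 21 genes above the floor in the list of glutathione, thioredoxin and Nrf2 targets. The median of that list was -0.31, and 1.15% of all genes above the floor were lower.

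Tfrc, the transferrin receptor, was the only 1 of 16 iron genes that changed, with 9.76 and 8.64 (-1.12). Slc2a1, the main glucose transporter of macrophages, read 6.43 and 5.32 (-1.11), and it was the only 1 of 19 genes of glycolysis and the pentose phosphate route past the rule. That list nevertheless had 17 negative differences of 19, beside 63.3% of all genes, and a median of -0.58. Single changed genes in these 2 lists stand beside 1.45% of all genes above the floor. Cd36, a receptor for fatty acids and oxidised lipoproteins, read 10.28 and 9.28 (2.01-fold), and Lpl, lipoprotein lipase, read 9.66 and 8.63 (-1.03). Both were among the strongest signals that changed, and both were short of 2-fold relative to the median of all genes.

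Amino acid genes moved in both directions. Slc7a2, a carrier of arginine and lysine, read 3.67 and 2.51, at least 2.21-fold lower. Phgdh, the first enzyme of serine synthesis, read 2.95 and 1.73, at least 1.34-fold lower. Kmo, an enzyme of the kynurenine route of tryptophan breakdown, was higher, with 4.16 in wild type and 5.54 in Stat6-/- (1.38). Of 17 genes above the floor in this list 2 were lower and 1 was higher, beside 1.15% and 0.301% of all genes. The median was -0.43.

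Several regulators were lower. Egr2, a zinc finger factor of macrophage activation, read 5.60 and 3.97, a difference of -1.63 or 3.09-fold, and its relative Egr1 read 4.68 and 3.61, a difference of -1.07 that was short of 2-fold relative to the median of all genes. They were the changed genes among 22 immediate early genes, whose median was -0.09, where 1.45% of all genes above the floor changed. Rnf128, a ubiquitin ligase also known as GRAIL, read 7.07 and 5.35, a difference of -1.72. Pcna, the sliding clamp of DNA replication, read 8.50 and 7.48, a difference of -1.02, and Pclaf, which binds it, read 4.67 and 2.98, a difference of -1.69, while its other probeset above the floor read 2.67 and 2.26, a difference of -0.41. Of 23 cell cycle genes above the floor Pcna alone passed the rule, where 1.45% of all genes did. The difference of Pcna was short of 2-fold relative to the median of all genes, and the list median was -0.45. Olfml3, a secreted glycoprotein, read 4.93 and 3.38 (-1.55), and Slc44a1, a choline transporter, read 6.19 and 4.68 (-1.50).

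The largest increases were smaller than the largest decreases. Lsp1, an actin-binding protein of leukocytes, had the largest increase, with 5.45 in wild type and 7.37 in Stat6-/-, a difference of 1.92 or 3.78-fold. Ctse, the endosomal protease cathepsin E, read 5.90 and 7.59 (1.68), and was the only higher gene of 28 lysosomal genes, of which Ctsk was the only lower one. Ifitm6, of the interferon-induced transmembrane family, read 5.55 and 7.20 (1.65). It was the only 1 of 13 Schlafen and Ifitm genes that changed, where 1.45% of all genes above the floor did. Ifitm2 read 9.45 and 9.52, and Ifitm3 read 10.55 and 10.64, both chosen after their values were seen.

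Receptors and signalling genes were also among the increases. Lifr, the receptor of leukemia inhibitory factor, read 3.75 and 5.28 (1.53). Ednrb, an endothelin receptor, read 3.83 and 5.04 (1.22). Eps8, an adaptor of growth factor receptors and actin, read 3.99 and 5.15 (1.16). Tgfbi, a secreted matrix protein induced by TGF-beta, read 5.19 and 6.56 (1.37). Tgfbi and, in the opposite direction, Fn1 were the changed pair among 16 growth factor and matrix genes, where 1.45% of all genes changed. The median of that list was -0.11, as for all genes. Slc9a9, a sodium and proton exchanger of endosomes, had the highest level of the higher genes, with 7.57 and 8.69 (1.12).

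The remaining large increases had less clear identities. Ak1, an adenylate kinase, read 2.72 and 3.92 (1.19), Nxpe5 read 5.00 and 6.15 (1.16), and Gm13213 read 5.30 and 6.46 (1.16). Tmem154 read 2.68 and 3.76 (1.08), but the mean of its probesets differed by 0.55. Usp17ld, of a family of near-identical deubiquitinase genes whose signals the probes may not separate, read 3.15 and 4.63 (1.48). Zfp658, Tmem210 and Gm10602 started under the floor, and were at least 1.55-fold, 1.29-fold and 2.27-fold higher.

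A pair of lectin genes that lie next to each other was higher in Stat6-/- in medium. Clec10a, also known as Mgl1, read 3.77 and 5.44, a difference of 1.67 or 3.19-fold. Mgl2 read 2.26 in wild type, under the floor, and 3.69 in Stat6-/-, at least 2.25-fold higher. The genes are close paralogs that bind galactose and N-acetylgalactosamine, and probes may not fully separate them. The only other neighbouring pair of changed genes was Sod2 and Gpr31b, and no run of 3 or more neighbouring genes changed in 1 direction.

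Several known targets of IL-4 were not above the floor in either genotype in medium. Arg1 (arginase) read 1.64 and 1.63, Retnla (a resistin-like protein) 1.20 and 1.32, Chil3 (a chitinase-like protein) 1.09 and 1.86, and Pdcd1lg2 (the ligand PD-L2) 1.63 and 1.60. All of these were under the floor on both arrays, so the genotypes could not be told apart there. Irf4, a transcription factor, read 2.75 and 2.73. Mrc1, the mannose receptor, was well above the floor and read 8.40 and 8.93, and Ccl24, an eotaxin, read 4.20 and 5.00, a difference of 0.80 short of the rule.

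The list of alternative activation genes had 31 members on the array and 21 above the floor in medium. Of these 6 were lower, namely Fn1, Mmp12, Atp6v0d2, Egr2, F10 and Slc7a2, and 2 were higher, namely Clec10a and Mgl2. Among all genes above the floor 1.15% were lower and 0.301% higher, and this list was chosen with earlier results of these data known. F10, coagulation factor X, read 4.89 and 3.73, a difference of -1.17. The median was -0.33 in medium and became 0.00 when values under the floor were raised to it. The members that were lower encode matrix, protease, transport and clotting proteins and 1 transcription factor, while the higher ones are both lectins.

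None of the measured genes of the receptor chain above Stat6 passed the rule in medium. Il4ra, the IL-4 receptor alpha chain, read 6.44 and 6.71, Il13ra1 read 4.80 and 4.99, and the kinase Jak1 read 8.14 and 8.21. Stat6 was the only 1 of 16 pathway genes above the floor that passed the rule, and the median of the list was 0.10. As 1.45% of all genes above the floor passed it, the lack of other changes is near that share. Jak3 and Il2rg had no probeset with their symbol alone, and their values are not given.

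Interferon-stimulated genes gave 0 changed genes of 36 above the floor in medium, where 1.45% of all genes changed. Their differences ran from -0.59 to 0.90, with a median of -0.13. The interferon-inducible GTPases gave 0 of 8, with a median of 0.18. In the pair of arrays with IL-4, 19 of these 36 and 6 of 9 GTPases above the floor were higher in Stat6-/-, where 4.01% of all genes were, with medians of 1.03 and 1.46. Rsad2, an antiviral enzyme chosen after its values were seen, read 6.80 and 6.87 in medium and 4.34 and 6.62 with IL-4. The difference between the cultures was not tested.

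Housekeeping complexes held no changed genes in medium. None of 58 cytosolic ribosome protein genes, 41 proteasome genes or 77 genes of the respiratory chain and ATP synthase passed the rule. Of all genes above the floor 1.45% passed it, so a count of 0 is near that share in groups of this size. The medians were 0.16, -0.32 and -0.15 in this order. Differences ran from -0.25 to 0.65 in the ribosome genes and from -0.64 to 0.69 in the respiratory chain genes. The 5th and 95th percentiles of all genes above the floor were -0.69 and 0.48. The proteasome genes lay on the lower side almost throughout, with 38 negative differences of 41 and values from -0.78 to 0.20. Of 20 cholesterol synthesis genes 0 changed in medium, with a median of -0.17 beside -1.38 with IL-4.

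Over the 40 gene lists, 46 of the 149 changed genes belonged to at least 1 list and 103 to none. These lists held 579 of the 10299 genes above the floor, and were chosen with earlier results of these data known. The medians of the lists depended on scaling where they were near 0: 15 of 46 list medians changed sign in at least 1 setting, among them those of chemokines, MHC class I genes and interferon-stimulated genes. The medians of the inflammatory, fusion, glycolysis, MHC class II and cell cycle lists stayed negative in the settings run, while those of metalloproteinases and integrins became 0.00 when values under the floor were raised to it.

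**Figure D3:**
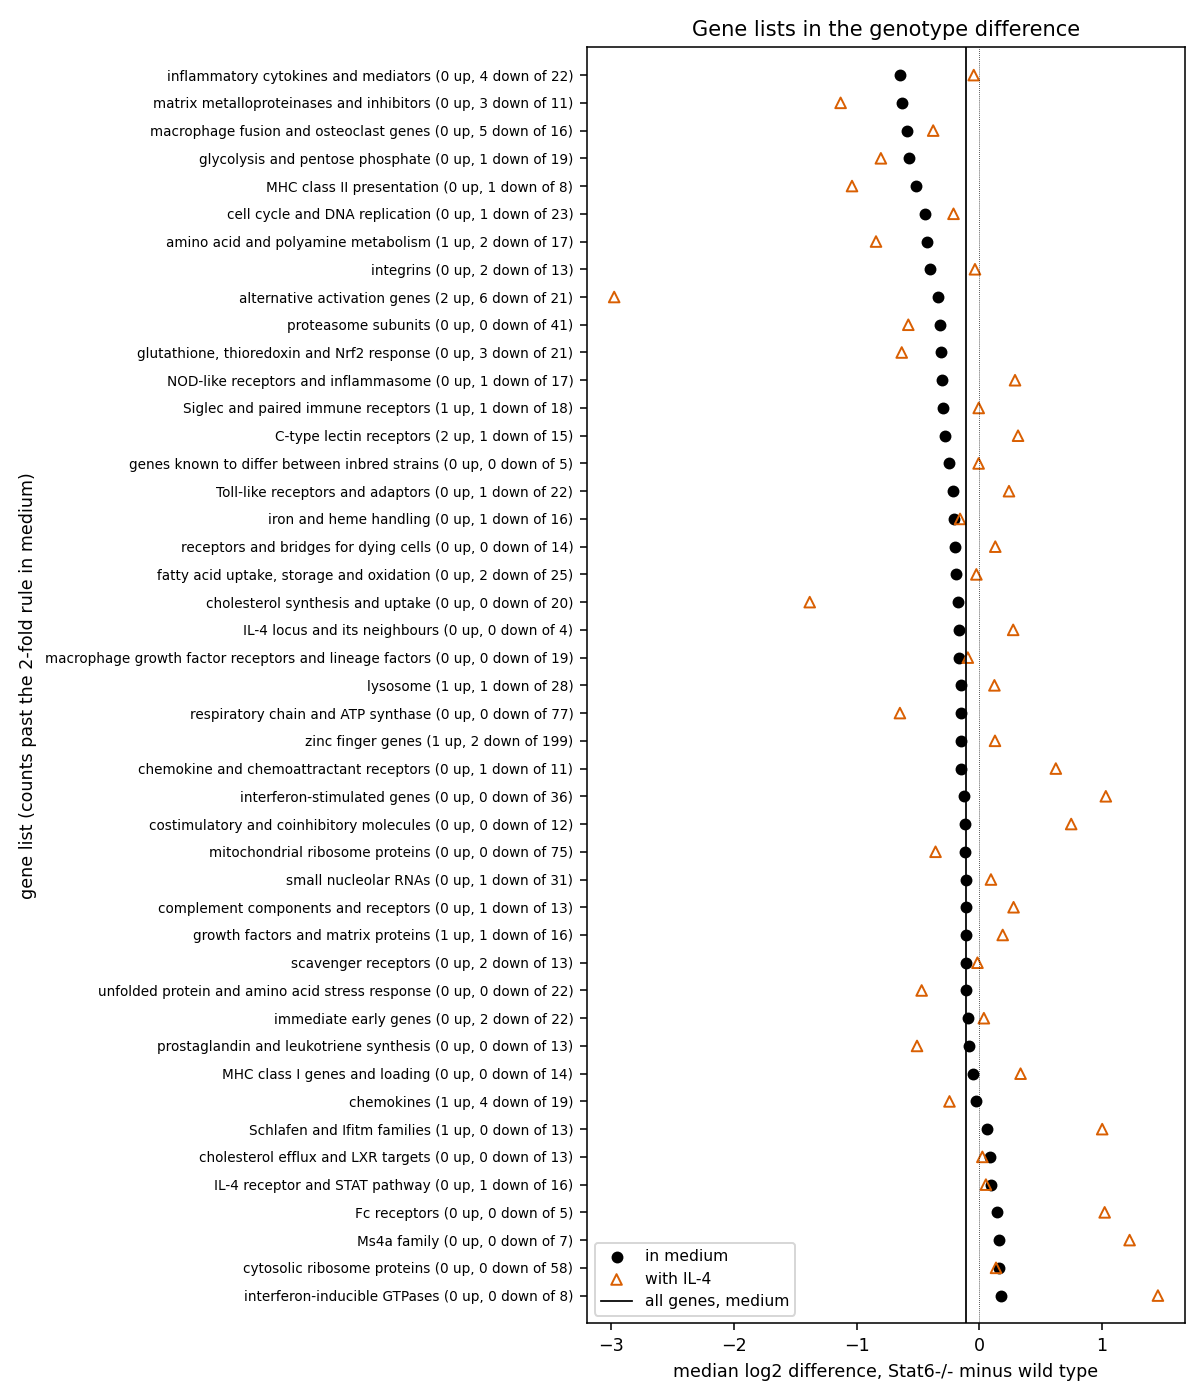
Median log2 difference, Stat6-/- minus wild type, of the members of each gene list above the floor, in medium (filled circles) and with IL-4 (open triangles), with the number of members past the 2-fold rule in medium beside each name. The solid line is the median of all genes above the floor in medium, -0.11. The inflammatory list lies lowest in medium at -0.65, and alternative activation genes lie lowest with IL-4 at -2.98.

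The cultures with IL-4 gave a second pair of arrays for the same genotypes that shares no array with the pair in medium, although the sources do not say whether the cells of a genotype came from the same mice. The labels give the IL-4 dose with 2 conflicting units, so it is left out here. With IL-4, 922 of 10433 genes above the floor passed the rule (8.84%), 504 of them lower (4.83%) and 418 higher (4.01%) in Stat6-/-. Of the 118 genes lower in medium, 49 (41.5%) were also lower with IL-4, where 4.48% of the genes above the floor in medium were. These 49 were 9.72% of the genes lower with IL-4. Another 68 did not pass the rule with IL-4 and 1 was higher. In all, 94 of the 118 had a negative difference with IL-4, and their median was -1.14 in medium and -0.80 with IL-4, where all genes had a median of 0.00.

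Of the 31 genes higher in medium, 11 (35.5%) were also higher with IL-4, where 4.03% of the genes above the floor in medium were, and these were 2.63% of the genes higher with IL-4. A further 18 did not pass the rule and 2 were lower. Their median was 1.16 in medium and 0.44 with IL-4. For 91 of the 118 lower genes both Stat6-/- arrays lay below both wild-type arrays, as they did for 25.4% of all genes above the floor in medium. For 23 of the 31 higher genes both Stat6-/- arrays lay above both wild-type arrays, as for 13.3% of all. In both counts the order of the arrays in medium is fixed by the choice of genes. Across 10798 genes the differences of the 2 pairs correlated with r = 0.302 (Pearson) and rho = 0.263 (Spearman), over genes that share the same 4 arrays and are not independent.

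Ranked by the smaller of their differences in the 2 cultures, the genes lower in both were led by Fn1, Itgax, Penk, Mmp12, Stat6, Cxcl13, Rnf128, Egr2, Atp6v0d2 and Rhoc. With IL-4, Fn1 read 9.52 in wild type and 3.70 in Stat6-/- (56.5-fold), and Itgax read 9.83 and 4.27 (47.2-fold). Penk read 8.23 and 3.59, a 25.02-fold difference. For these 3 genes the Stat6-/- signals were low in both cultures, from 2.49 for Penk in medium to 4.27 for Itgax with IL-4.

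The other genes of this group differed in how the cultures compared. Mmp12 read 10.73 and 7.85 with IL-4, a difference of -2.88 beside -3.15 in medium. Atp6v0d2 read 8.30 and 6.74, and Cxcl13 read 4.51 and 2.42. Egr2 read 8.29 and 4.47, and Rnf128 read 8.06 and 5.75. Atp6v0d2 and Cxcl13 were thus closer between genotypes with IL-4 than in medium, and Egr2 and Rnf128 further apart. Mmp9, F10 and Slc7a2 differed by -1.31, -1.17 and -1.16 in medium and by -4.97, -4.84 and -4.54 with IL-4.

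By the same ranking, the genes higher in both cultures were led by Lsp1, Ctse, Ifitm6, Lifr, Kmo, Tgfbi, Eps8, Nxpe5, Slc9a9 and Tmem154, and Ccl12 was the remaining 1 of the 11. Lsp1 had nearly the same levels with IL-4, 5.43 in wild type and 7.35 in Stat6-/-, a difference of 1.92 in both cultures. Ifitm6 read 1.57 in wild type with IL-4, under the floor, and 7.33 in Stat6-/-, at least 28.0-fold higher. Ctse read 3.45 and 7.26 with IL-4, and Kmo read 1.58 and 4.74. In Ifitm6, Ctse, Kmo and Slc9a9 (5.43 and 8.12 with IL-4) the Stat6-/- arrays of the cultures lay closer together than the wild-type arrays.

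Some of the largest differences in medium were not seen with IL-4. Siglece read 2.79 in wild type and 2.81 in Stat6-/- with IL-4, and Plau read 6.91 and 6.95. Marco read 3.29 and 3.14, Il1rn read 5.53 and 5.11, and Mefv read 3.04 and 2.96. Clec10a read 4.68 and 5.12. In Siglece, Il1rn, Mefv and Clec10a the wild-type arrays of the 2 cultures were further apart than the Stat6-/- arrays. In Marco the Stat6-/- arrays (2.34 and 3.14) were further apart.

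**Figure D4:**
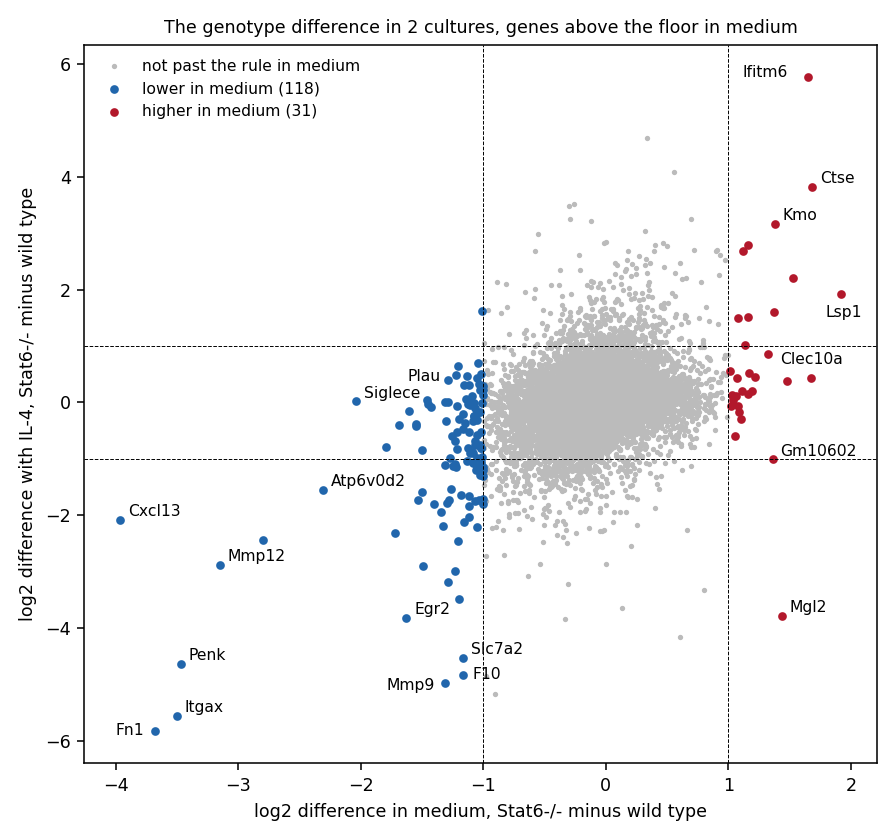
Each point is a gene above the floor in medium, with its log2 difference, Stat6-/- minus wild type, in medium on the x axis and with IL-4 on the y axis; dashed lines mark 2-fold, and the 118 genes lower and 31 higher in medium are coloured. Fn1 and Itgax lie far below 0 on both axes, Siglece and Plau lie at about 0 with IL-4, and Mgl2 is higher in medium and lower with IL-4.

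Because the Stat6-/- mice carry a targeted chromosome region and a reporter at Il4, genes around both places were examined. Of the 10 genes on each side of Stat6 in the RefSeq order that had a probeset, 7 lay above the floor in medium and 0 changed. Their differences ran from -0.81 in Shmt2 (4.11 and 3.29), a mitochondrial enzyme of serine and glycine metabolism, to 0.27 in Nab2 (5.65 and 5.92), a corepressor of Egr factors, with a median of -0.10. Lrp1, the nearest gene on 1 side, read 7.68 and 7.22. Among 94 genes above the floor of the 100 on each side, Olfr767 alone passed the rule, where 1.45% of all genes above the floor did. Counts of 0 of 7 and 1 of 94 are near that share.

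At the Il4 locus 0 of 4 genes above the floor changed in medium. Il4 itself was under the floor at 1.53 and 1.67, Rad50 read 4.66 and 4.46, and Kif3a read 5.38 and 5.84. With IL-4, Kif3a read 3.06 in wild type and 5.90 in Stat6-/-. Genes known to differ between inbred strains gave 0 of 5 past the rule, with a median of -0.25. Among them Nnt read 6.44 and 6.55, Ifi202b read 7.60 and 7.35, and H2-Ea read 6.55 and 5.89. The genes of both lists were chosen after their values were seen. These genes showed no 2-fold genotype difference in medium, where 1.45% of all genes above the floor did. Sets this small would rarely hold a changed gene at that share, so the counts of 0 say little about the mouse lines. A difference of the mouse lines elsewhere in the genome was not tested.

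The array also held 300 microRNA genes, of which 74 lay above the floor in medium, 0 were higher and 2 were lower, with a median difference of 0.16. Since 1.15% of all genes above the floor were lower, a count of 2 is near that share in a group of this size. The changed genes, chosen after their values were seen, were Mir342, with 4.29 in wild type and 3.08 in Stat6-/- (-1.22), and Mir15a, with 4.63 and 3.51 (-1.12). With IL-4 both differed by -0.52. Whether the probesets read the mature microRNA or its host transcript was not tested. Their mature sequences, from RefSeq on GRCm38.p6, are given 5′ to 3′ with the seed, bases 2 to 8, in capitals, and the 4 seeds all differ.
miR-342-3p: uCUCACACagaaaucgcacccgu
miR-342-5p: aGGGGUGCuaucugugauugag
miR-15a-5p: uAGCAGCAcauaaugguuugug
miR-15a-3p: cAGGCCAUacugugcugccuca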

How the data were processed

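RNA of 4 cultures was measured on 1 Affymetrix whole-transcript array each, and the pair in medium is described here. The authors deposited log2 signals per probeset, made with RMA in Affymetrix Expression Console per the submitters' processing notes, with versions, settings and genome build not given in the sources used here. RMA corrects background and normalizes quantiles, and it compresses weak signals, so that folds of weak genes are understated.

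Of 35557 probesets, 21789 had 1 symbol in the platform annotation, 1621 several and 12147 none. Of the first, 21698 matched an Entrez identifier in a RefSeq table (GRCm38.p6). Each of 19938 genes was read from its probeset with the highest mean over the 4 arrays, and 999 genes had several. Differences were computed with Python 3.11.15, NumPy 2.4.6, pandas 2.3.3 and statsmodels 0.14.6 and checked on simulated data. The floor was the 50th percentile of single-symbol probesets.

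Named were Stat6 and 13 further genes of the IL-4 response as far as measured, the 20 largest changes each way, the 10 largest each way past the rule in both cultures, up to 5 changed members of each of 40 gene lists, runs of 3 or more changed neighbours, and the 10 neighbours on each side of Stat6. Cell type markers were named as a check, and other genes are marked where they were picked with their values in view. Lists held 997 entries, of which 910 matched. The members and lists were chosen with earlier results of these data known. Alternatives were other normalizations (quantile, one median, lowess with fraction 0.3), other floors, the mean of probesets, a threshold of 1.5, and, chosen after seeing the data, centring on the median.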

Additional observations from a re-analysis of the deposited data

Results flagged for a closer look

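In 3 genes the genotypes differed by 2-fold or more in opposite directions in the 2 cultures, and the difference between the cultures was not tested. Mgl2, the lectin gene, was higher in Stat6-/- in medium (1.44, at least 2.25-fold) and lower with IL-4 (-3.78, 13.7-fold): its Stat6-/- signals were 3.69 and 3.85, while wild type read 2.26 in medium and 7.63 with IL-4. Gm10602 differed by 1.36 in medium and by -1.01 with IL-4, with its lower array under the floor each time. The noncoding gene 6330407A03Rik differed by -1.01 in medium (4.75 and 3.74) and by 1.61 with IL-4 (2.38 and 3.99). Its difference in medium was short of 2-fold relative to the median of all genes (-0.90), with quantile normalization applied again (-0.85) and after lowess (-0.87).

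Probesets that could not be assigned to 1 gene also held differences in medium. Of 1621 probesets with several symbols 782 lay above the floor, and 16 passed the 2-fold rule, 15 lower and 1 higher. Of 12147 probesets with no symbol in the annotation used here 4995 lay above the floor, and 831 passed the rule, 525 lower and 306 higher in Stat6-/-. Among named genes 149 of 10299 passed it (1.45%). Passing was thus more frequent among probesets with no symbol than among named genes, and the reason was not tested. No gene can be named from them here.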

How the results depend on the processing

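No paired analysis was possible because each group had 1 array and the labels carry no replicate numbers. The main counts were 31 higher and 118 lower genes. The higher count became 14 with the floor at the 75th percentile of 4.65, 5 with a threshold of 1.5 and 54 with differences centred on their median, the last chosen after seeing the data. The lower count became 71 with quantile normalization applied again, 18 with the threshold of 1.5 and 70 after centring, and it was 158 beside 25 higher with arrays shifted to one median. The genes past the rule in both cultures, 11 higher and 49 lower, became 17 higher with quantile normalization, 4 higher and 11 lower with the threshold of 1.5, and 17 higher after centring. Fewer genes are eligible under a higher floor or threshold by construction, and for the other settings the cause was not tested. Of the 149 changed genes, 100 remained with quantile normalization, 92 after lowess, 143 with arrays shifted to one median and 101 after centring. The median of the genes known to differ between inbred strains became 0.11 with no floor. A signal under the floor limits a fold to a bound, which applied to 26 genes.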

Other observations

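Genes outside the lists made up most of the changed genes, as they did of all genes above the floor. Several are known from nerve cells, energy metabolism or the nucleus. They were chosen after their values were seen. Npy, the neuropeptide Y precursor, read 5.89 in wild type and 4.60 in Stat6-/- in medium (-1.29), and 4.99 and 5.39 with IL-4. Flrt2, an adhesion protein of axon guidance, read 4.83 and 3.60 in medium and 7.01 and 4.02 with IL-4. Car5b, a mitochondrial carbonic anhydrase, read 5.37 and 4.07 in medium and 6.62 and 3.44 with IL-4. Of these 3 genes, Flrt2 and Car5b were lower in both cultures.

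Receptors for lipids and cytokines were also found there. Gpr84, a receptor for medium-chain fatty acids, read 6.56 and 5.35 in medium (-1.21) and 7.26 and 4.80 with IL-4. Il7r, the IL-7 receptor, read 7.96 and 6.83 in medium (-1.13), and 7.00 and 6.97 with IL-4. Its difference in medium became -0.98 with the intensity trend removed. Spic, a factor of red pulp macrophages, read 3.59 and 2.38 in medium, at least 2.09-fold lower. Pdpn, podoplanin, read 4.72 and 3.60 in medium (-1.12) and 4.05 and 4.10 with IL-4. The genotypes were close with IL-4 in Il7r and Pdpn, and apart in both cultures in Gpr84.

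Genes of the cell nucleus with differences of more than 2-fold in medium included Smarcad1, a chromatin remodeller (5.49 and 4.19), Lmnb1, a lamin (3.80 and 2.54), and Nup54, a pore protein (4.78 and 3.51). With IL-4 they read 4.96 and 4.63, 4.04 and 3.44, and 4.88 and 3.88, and none of the 3 passed the rule.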
